A study of Mus musculus with 6 samples.

Results

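The genes described here take part in the oxidation of fatty acids and in the use of ketone bodies. They were chosen by name from a list of 42 genes that covers the carnitine shuttle, the mitochondrial and peroxisomal spirals of beta-oxidation, the acyl-CoA synthetases, fatty acid binding proteins, a pair of coactivators and the enzymes of ketone use. Of these 42 genes, 39 had a value among the 20624 genes of the table, and Cd36, Fabp3 and Fabp4 had none. The values came from RNA sequencing of mDCT15 cells, a mouse cell line derived from the distal convoluted tubule, the segment of the nephron that fine-tunes salt reabsorption. There were 3 Pkd1-/- samples and 3 wild type samples, titled as biological replicates. The Pkd1-/- cells had been made by CRISPR-Cas9 editing of Pkd1, the gene for polycystin-1, and their titles give a knockout while their genotype field gives a knockdown. How many edited clones were used is not given in the sources used here.

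The study compared the genotypes, but the value used here is the authors' mean normalized count of each gene, pooled over all 6 samples. A difference between genotypes, the spread between replicates and the depth of each sample were therefore not analysed here. What follows is a description of how much RNA of each gene these cells held on average, with both genotypes mixed in every value and with no test. An order of pooled levels need hold in only 1 of the genotypes. To compare genes, each mean was divided by the length of the gene's longest annotated transcript and given as a level per kb. Percentiles place a gene among the 13611 genes that had a gene model and a mean of 10 or more. Levels per kb were also computed with 3 other lengths (canonical transcript, average transcript, or all exons joined). Since the pooled values carry no replicate error, the orders given below are those of the longest transcript unless another length is named. Of 78 pairs of genes of the same role, 68 kept that order under all 4 lengths and 10 did not.

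Fatty acids are activated to acyl-CoA by synthetases, carried into mitochondria as carnitine esters and shortened in repeated rounds by a dehydrogenase, a hydratase, a further dehydrogenase and a thiolase. Electrons from the first dehydrogenase pass through the electron transfer flavoprotein to the respiratory chain, while ketone bodies made in the liver are turned back into acetyl-CoA by other tissues. Tubule cells of the kidney draw much of their ATP from fatty acids.

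The cells were first checked against markers. Of 8 genes listed for the distal convoluted tubule, 3 had a value: the kinase gene Stk39 had a mean of 621, the kinase gene Wnk4 a mean of 413 and the magnesium channel gene Trpm6 a mean of 29.6. Slc12a3, the sodium chloride cotransporter that defines this segment, had no value, nor had Pvalb, Calb1, Kl and Cldn8. Why they had none was not tested. By level per kb none of the 3 genes with a value lay above the median of all genes, with percentiles of 43.2 for Stk39, 44.0 for Wnk4 and 3.19 for Trpm6, while with the canonical transcript Stk39 did (percentile 53.5). The label was thus checked on few markers, none of them far above the middle of the table. Of 8 genes of kidney epithelium, 6 had a value, whereas Cdh1 and Krt18 had none. The transcription factor gene Pax8 had the highest mean of that list, 4905. By level per kb Cdh16 was above it, at 1500 compared with 1318. Of the 5 with a mean of at least 10, 4 lay above the median of all genes per kb. The exception was Epcam, with a mean of 115 and percentile 32.6, and the keratin gene Krt8 had a mean of 0.98. Of the proximal tubule list, the water channel gene Aqp1 had a mean of 11355 (percentile 99.4 per kb) and the endocytic receptor gene Lrp2 a mean of 8826 (percentile 89.3 per kb), whereas Cubn, the receptor that works with it, had a mean of 169 and lay below the median of all genes per kb. The transporters that define that segment were low, with means of 2.04 for Slc34a1 and 2.77 for Slc5a2. In the collecting duct list the highest mean was 1.95, for Aqp3, and Scnn1g had 0.618. Fibroblast genes were led by Col1a1 with a mean of 201, with Col1a2 at 2.71, Pdgfrb at 4.48 and Dcn at 6.01. Among leukocyte and endothelial genes, Cd68 had a mean of 41.9, Ptprc 5.36 and Pecam1 4.68. No gene of the adipocyte, hepatocyte or thick ascending limb lists had a value.

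Together the 39 genes summed to a mean normalized count of 42068, which was 0.251% of the sum over all genes. Of the 39, 38 had a mean of at least 10, and Ehhadh did not. The median of these 38 lay at 207 per kb, compared with 121 per kb over all 13611 genes, and their median percentile was 65.7. By level per kb, 26 of the 38 (68.4%) lay above the median of all genes, compared with 50% of all genes by construction. At or above percentile 90 lay 4 of the 38 (10.5%), compared with 10% of all genes by construction, and 7 of the 39 when genes of any mean were ranked. Those 4 were Oxct1, Acadl, Acadvl and Hadha, and with the canonical transcript Hadh and Etfa joined them. Because the 38 were those past the minimum, these counts describe them and not the whole list.

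**Figure D1:**
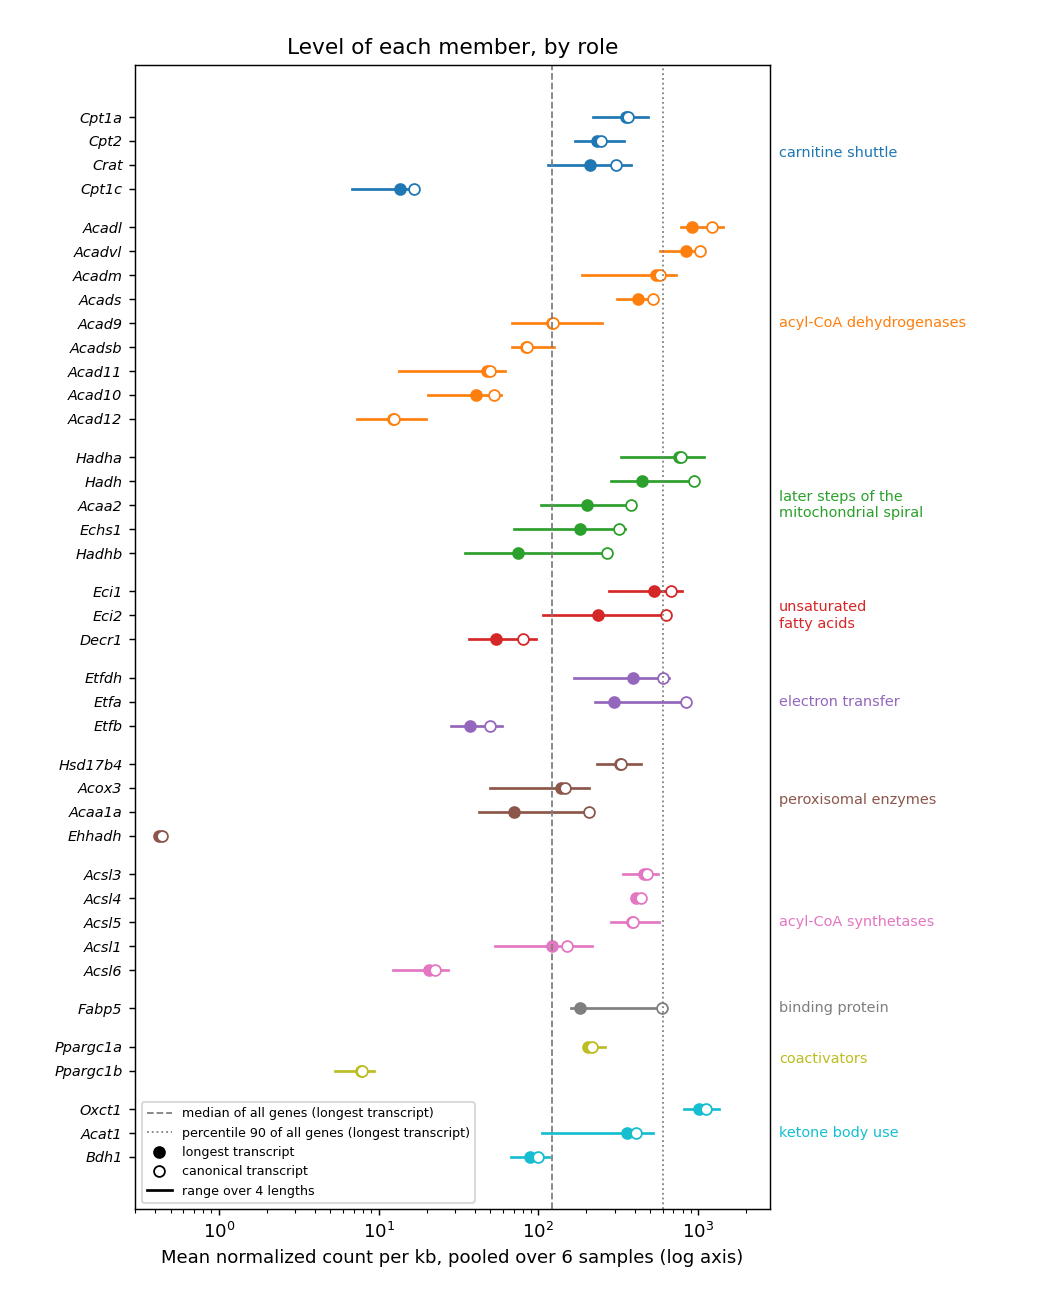
Mean normalized count per kb of each of the 39 genes (log axis), pooled over 6 samples and grouped by role. Filled points use the longest transcript, open points the canonical transcript and lines the range over 4 lengths; the dashed and dotted lines mark the median and percentile 90 of all genes. With the longest transcript Oxct1 lies highest, with the canonical one Acadl does, and Ehhadh lies lowest with both.

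The carnitine shuttle moves long acyl chains across the mitochondrial membranes. Cpt1a, whose product makes the acylcarnitine at the outer membrane and is the step that malonyl-CoA inhibits, had the highest level of this role with 355 per kb. Cpt2, which turns acylcarnitine back into acyl-CoA inside, stood at 233 per kb, and Crat, the acetyltransferase for short chains, at 210 per kb, an order that turned to 248 and 305 per kb with the canonical transcript. Cpt1c, a form known mainly from neurons, was the lowest with 13.7 per kb. The Cpt1a level per kb was 25.9 times that of Cpt1c, and between 22.0 and 32.4 times over the 4 lengths. Without length scaling the ratio of means was 51.6.

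The acyl-CoA dehydrogenases carry out the first oxidation and differ in the chain length they accept. The genes for long and very long chains led, with Acadl at 916 per kb (percentile 94.6) and Acadvl at 838 per kb (percentile 93.9). Acadm, for medium chains, stood at 548 per kb and Acads, for short chains, at 423 per kb, while with all exons joined Acads was the higher with 311 compared with 189 per kb. Acadsb, which acts on short branched chains from isoleucine, had 83.6 per kb, and Acad9, also an assembly factor of respiratory complex I, had 122 per kb. The orders of Acad9 and Acadsb and of Acad11 (47.5 per kb) and Acad10 (40.6 per kb) also turned with the length. Acad12 was the lowest of the role with 12.4 per kb. Acadl was the highest and Acad12 the lowest of this role under each of the 4 lengths, and their ratio of levels per kb ranged from 72.0 to 106.

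The later steps of the mitochondrial spiral were led by Hadha, the alpha subunit of the trifunctional protein, with 757 per kb (percentile 93.0). Hadhb, its beta subunit with the thiolase activity, was the lowest of the role with 74.5 per kb. It was also the lowest with the canonical transcript, at 270 per kb, but the highest of the role, at 1943 per kb, when only the sequence that sets it apart from other genes was counted as its length. Between them lay Hadh, the dehydrogenase for shorter hydroxyacyl chains, with 446 per kb, the thiolase gene Acaa2 with 202 per kb and the hydratase gene Echs1 with 183 per kb. With the canonical transcript Hadh was the highest of the role, at 936 per kb. That measure is described with the sequences shared between genes.

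Unsaturated fatty acids need extra enzymes before they can enter the spiral. Of these, the isomerase gene Eci1 had 529 per kb, the isomerase gene Eci2 had 235 per kb and the reductase gene Decr1 had 54.0 per kb. Eci1 was the highest and Decr1 the lowest under each of the 4 lengths.

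Electrons leave the acyl-CoA dehydrogenases through the flavoprotein subunits Etfa and Etfb and then Etfdh, which passes them to ubiquinone. Etfdh had 389 per kb, Etfa 296 per kb and Etfb 37.1 per kb. The order of the upper pair was not settled, because Etfa had 0.761 times the Etfdh level with the longest transcript and 1.39 times with the canonical one. Etfb was the lowest of the 3 under every length used. In the annotation used here, which is later than the authors', only part of its sequence was free of another gene's exons. This is described with the sequences shared between genes.

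Peroxisomes shorten very long and branched chains. Hsd17b4, the multifunctional enzyme of that pathway, led with 326 per kb, followed by the oxidase gene Acox3 with 139 per kb and the thiolase gene Acaa1a with 70.3 per kb. With the canonical transcript Acaa1a was above Acox3, at 208 compared with 147 per kb. Ehhadh, the other multifunctional enzyme, had a mean of 1.31, the lowest of the 39 genes. Both multifunctional enzymes hold hydratase and dehydrogenase activity, and of the pair nearly all of the pooled RNA was that of Hsd17b4.

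The acyl-CoA synthetases activate fatty acids and differ in where they sit and which chains they prefer. Acsl3, found on the endoplasmic reticulum and lipid droplets, had 456 per kb, Acsl4, which prefers arachidonate, 410 per kb, and Acsl5 383 per kb. Which of these 3 was the highest changed with the length used. Acsl1, the form tied to oxidation in fat, heart and liver, had 122 per kb, close to the median of all genes, and Acsl6, known from brain, was the lowest with 20.7 per kb.

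Of the 4 uptake and binding proteins among the 42 genes, only Fabp5, a cytosolic carrier of fatty acids, had a value, with a mean of 590. Its level was 182 per kb with the longest transcript and 594 per kb with the canonical one. It was 1246 per kb when only the sequence that sets it apart from other genes was counted as its length. That value divides the whole mean, and reads over that sequence alone were not counted. Of the coactivators that drive transcription of mitochondrial genes, Ppargc1a had 203 per kb and Ppargc1b 7.72 per kb. The Ppargc1a level per kb was 26.3 times that of Ppargc1b with the longest transcript and up to 37.0 times over the 4 lengths. Without length scaling the ratio of means was 45.2.

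Among the ketone genes, Oxct1, the transferase that commits acetoacetate to use and is scarce in liver, had the highest mean of the 39 genes, 3929, and with the longest transcript the highest level, 1019 per kb (percentile 95.4). With the canonical transcript Acadl was above it, at 1214 compared with 1113 per kb. Acat1, the thiolase that splits acetoacetyl-CoA, had 359 per kb. Bdh1, which interconverts hydroxybutyrate and acetoacetate, had 88.7 per kb, below the median of all genes. The Oxct1 level per kb was 11.5 times that of Bdh1, with a range from 11.3 to 12.1 over the 4 lengths.

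Over the 9 roles with several genes, the lowest gene of each role was the same under all 4 lengths in 9 of 9, and the highest in 6 of 9. With countable windows, described below, the lowest was the same in 8 of 9, as Hadhb moved to the top of its role and Echs1 became the lowest. The 3 roles whose highest gene changed were the later steps of the spiral, electron transfer and the synthetases.

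Other genes of the same pathway were described from a separate list. Of its 45 genes, 38 had a value and 32 had a mean of at least 10. The 32 past that minimum, and not the whole list, are described by the next counts. Their median percentile was 57.4, and 19 of the 32 lay above the median of all genes. Without length scaling 15 of the 32 did, and over all alternatives the median percentile of this list ranged from 49.3 to 65.9. The highest were Dbi, which binds acyl-CoA in the cytosol, with 1066 per kb, the thioesterase gene Acot7 with 1050 per kb, and Aacs, which activates acetoacetate in the cytosol for lipid synthesis, with 587 per kb. Among the lowest by level per kb were the brain synthetase gene Acsbg1, with a mean of 4.83, and Cpt1b, the muscle form of the outer transferase, with a mean of 5.66. Fabp1, Fabp2, Fabp6, Slc27a2, Acot1, Acss1 and Acsm3 had no value.

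Lists of neighbouring pathways, chosen after the values had been seen, gave a scale for these levels. The median percentile was 90.7 for 17 genes of the tricarboxylic acid cycle, 89.8 for 16 genes of glycolysis and 94.7 for 14 genes of fatty acid synthesis, compared with 65.7 for the 38 genes of oxidation and ketone use. At or above percentile 90 lay 9 of 17, 8 of 16 and 9 of 14 genes of those lists, compared with 4 of 38. For the tricarboxylic acid cycle that count was 5 without length scaling and up to 12 without a minimum mean. Over all alternatives the median percentile ranged from 83.9 to 93.7 for that list, from 86.9 to 93.1 for glycolysis and from 92.3 to 96.4 for fatty acid synthesis, compared with 58.8 to 76.5 for the 38 genes. The median of the oxidation and ketone genes was below that of each of these lists, which is a description of these pooled values and not a test.

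**Figure D2:**
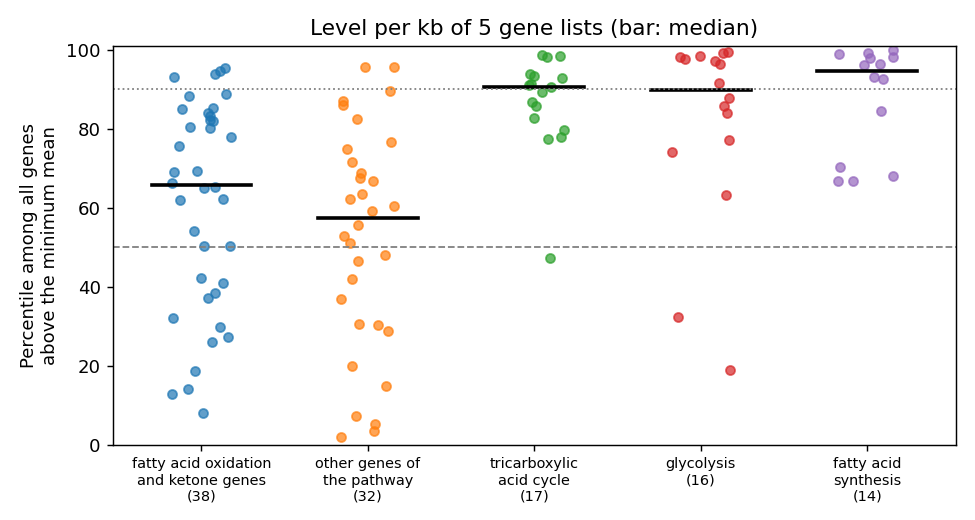
Percentile of the level per kb (longest transcript) of each gene, ranked against 13611 genes, for 5 lists; numbers in brackets are genes, bars are medians, and the dashed and dotted lines mark percentiles 50 and 90. The 38 oxidation and ketone genes spread over most of the range, with a median of 65.7. The horizontal scatter within a list carries no meaning.

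Some of these genes share sequence with other genes, and reads from shared sequence are set aside when counting is limited to reads with 1 place in the genome and 1 gene. Each canonical transcript was read in windows of 42 bases, the read length, and a window was taken as countable if it occurred nowhere else in the genome and touched no exon of another gene on the same strand. Exons on the opposite strand were left out of this rule, so the shares apply to counting that uses strand. Of the 39 genes, 22 had at least 99% countable windows, 14 had from 70 to 99% and 3 had under 50%. The 3 were Hadhb with 14.2%, Etfb with 22.8% and Fabp5 with 49.7%. Reads were sequenced in pairs, and a pair can be placed by either mate, so the share of pairs that was lost was not measured.

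For Hadhb, 85.8% of windows had an identical copy elsewhere, and 65.9% were shared with the processed pseudogene Hadhb-ps on chromosome 2, which had a mean of 26.0. For Fabp5, 43.0% were shared with the processed pseudogene Gm18103 on chromosome 9. The following windows show such identity, each read from the coding sequence on the plus strand of GRCm39 and found without a mismatch in the pseudogene. The Hadhb window lies at chr5:30368675-30368716 and its copy at chr2:108779151-108779192, and the Fabp5 window lies at chr3:10077725-10077766 with its copy at chr9:57391271-57391312.
Hadhb: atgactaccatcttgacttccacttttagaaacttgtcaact
Fabp5: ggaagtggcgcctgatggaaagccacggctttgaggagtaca

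Etfb differed from these, as 77.2% of its windows touched exons of the overlapping gene Etfbl on the same strand, and 0% had a copy elsewhere. The level of Etfbl was not analysed here, and whether the authors' annotation held this gene was not tested. Of the 14 genes between 70 and 99%, the lowest was Acaa1a with 72.9%, which shared 27.1% of its windows with Acaa1b. Acad10 and Acad12 shared sequence with each other and had 79.4% and 78.5% countable windows. The levels of these genes are uncertain for that reason.

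**Figure D3:**
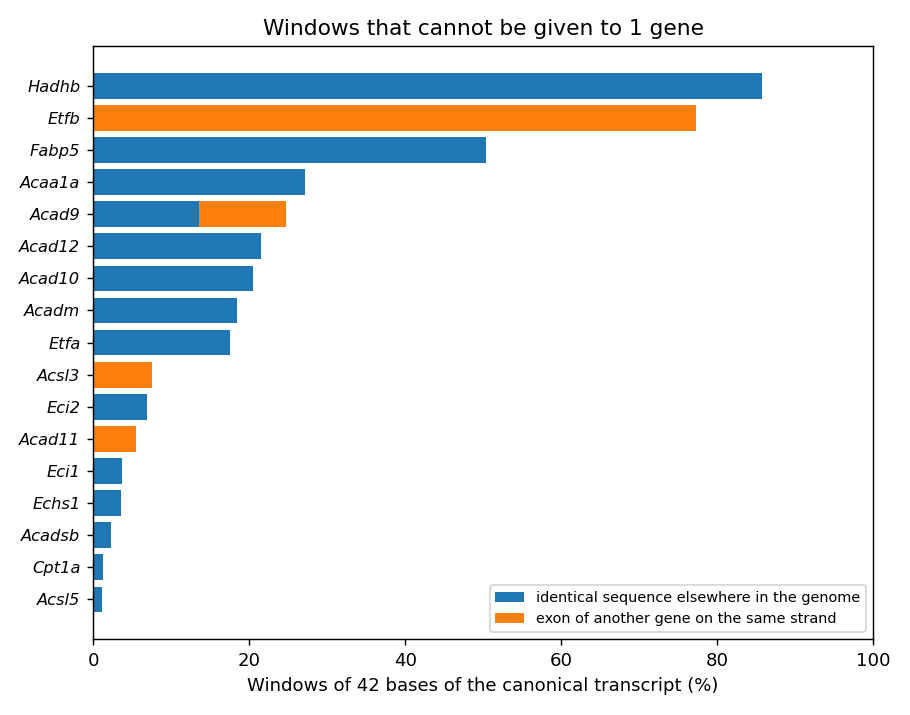
Share of 42-base windows of the canonical transcript, in percent, that were identical to another place in the genome (blue) or lay in an exon of another gene on the same strand (orange), for genes where this was at least 1%. A window that met both conditions enters both parts of its bar. Hadhb, Etfb and Fabp5 stand above the others.

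The ratio of Hadha to Hadhb depended on the length by which the means were divided. It was 10.2 with the longest transcript and 2.87 with the canonical one, on levels per kb. Divided by countable windows alone, it became 0.404, so which subunit had the higher level was not determined by these values. For that ratio 100% of the Hadha windows were taken as countable, although 53.8% of its canonical transcript lay opposite exons of other genes. The ratio of Etfa to Etfb was 7.98 with the longest transcript and 16.9 with the canonical one, and it was still 4.56 with countable windows alone. The genes Hadha and Hadhb also stand head to head on chromosome 5, with 64 bases between their canonical start sites.

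**Figure D4:**
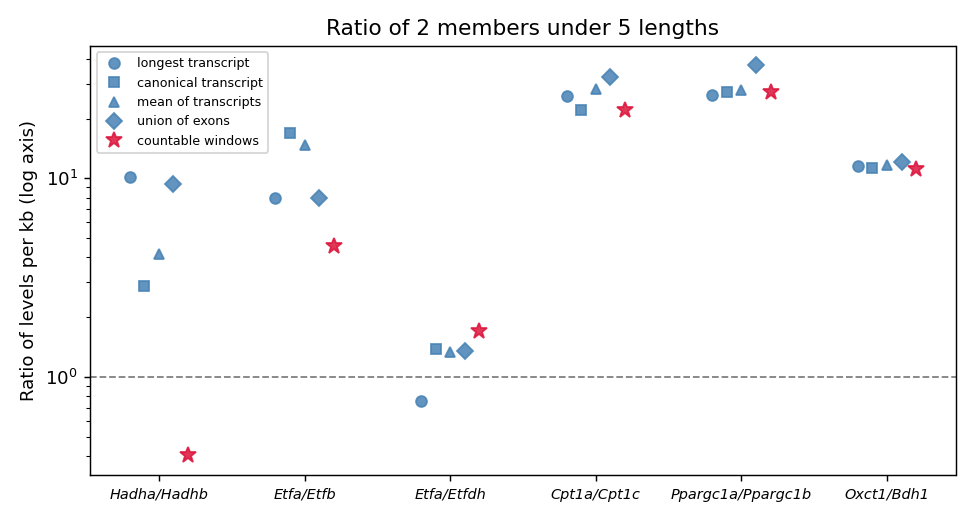
Ratio of the levels per kb of 6 pairs of genes (log axis) under 4 transcript lengths (blue) and by countable windows (red stars); the dashed line marks equal levels. Of these 6, the Hadha to Hadhb and Etfa to Etfdh ratios cross that line. The pairs were chosen after their values had been seen.

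Strand was checked because the authors counted with default parameters, which use it, while the strand that the libraries keep is not given in the sources used here. Counts of the strand opposite to each gene would make every level that of antisense reads, and a noncoding gene opposite the exons of a coding gene would then hold the reads of the coding gene. In 44 pairs with a value for both, the noncoding gene lay by at least 80% opposite the exons of 1 coding gene. The noncoding gene was the lower per kb of joined exons in 41 of the 44, with a median ratio of 0.0146, and in 40 of the 40 pairs whose coding gene had a mean of at least 100. Of 401 such pairs by annotation, 303 had a value for the coding gene alone and 2 for the noncoding gene alone. These values do not tell counting by strand from counting that sets aside reads shared by overlapping genes. In 4 of the 39 genes, over 25% of the canonical transcript lay opposite exons of another gene: Hadha with 53.8%, Acadvl with 44.5%, Acsl5 with 42.8% and Etfdh with 25.2%. The genes opposite them had means of 44.7 (Garem2) and 550 (Hadhb) for Hadha, 1847 (Dvl2) for Acadvl, 1595 (Zdhhc6) for Acsl5 and 1711 (Ppid) for Etfdh. The part of these partners in the values of the 4 genes was not tested.

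Promoter sequences from RefSeq (GRCm38.p6) were matched by symbol for 31 of the 39 genes. In the 250 bases before the start, 9 motifs were searched on both strands and compared with the promoters of 27025 genes; they were picked after the levels had been seen and served as a description only. The GC box GGGCGG was found in 20 of 31 (64.5%, compared with 35.4% of all genes), and the CCAAT box CCAAT in 14 (45.2%, compared with 37.5%). The estrogen-related receptor site AAGGTCA was found in 2, Acadm and Acsl6 (6.45%, compared with 4.70%), and its longer form TCAAGGTCA, which contains it, in Acsl6 alone (3.23%, compared with 0.422%). The nuclear respiratory factor 1 palindrome, GCGCA followed by its reverse complement, was found in Acad12 and Etfdh (6.45%, compared with 0.877%). The remaining 4 motifs were found in 0 of 31: the TATA box TATAAA (14.3% of all genes), the E-box CACGTG (6.86%), the cAMP response element TGACGTCA (1.77%) and a direct repeat of AGGTCA 1 base apart (0.0407%). A match says only that these letters occur in the window.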

How the data were processed

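The authors trimmed reads of 42 bases in pairs with Trim Galore 0.4.5, mapped them with STAR 2.7.5a to GRCm39, counted them with HTSeq 0.11.0 at default parameters and used DESeq2 1.22.0 in R 3.5.3. The deposited signal used here is the authors' mean normalized count per gene over all samples. The other columns of the table hold the authors' log2 fold changes, standard errors, test statistics and p-values for the genotypes, and none was used. A count model for genotype had been planned and was not run, because no values of single samples were analysed; depth per sample is unknown.

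Lengths came from GENCODE M39, later than the authors' annotation, in which 20122 (97.6%) genes were found. For a symbol with several identifiers the highest mean was kept, which affected 1 listed gene and 0 of the 42. Windows of 42 bases were matched to both strands of GRCm39. Percentiles were tested on simulated data. Python 3.11.15, numpy 2.4.6, pandas 2.3.3 and matplotlib 3.10.9 were used.

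The members and lists were chosen with earlier results of these data known. All members were named, with the highest and lowest of each role and those with a mean under 10 in full; from other pathway genes the 3 highest and 3 lowest, of which 1 is not reported here; from each marker list its highest gene and defining markers with a mean under 10. The canonical lengths, countable windows and their limits, 16 ratios, the orders under other lengths, 3 neighbouring lists, 9 motifs, the strand check and printed sequences were chosen after values were seen. The motifs were first searched in 300 bases and then in the 250 before the start.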

Additional observations from a re-analysis of the deposited data

How the results depend on the processing

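The counts of genes above the median (26) and at or above percentile 90 (4) were within 1.5 times of these values under the other lengths, no length scaling, a minimum mean of 100 and protein-coding genes only. Over these settings they ranged from 22 to 28 and from 3 to 6. Without a minimum mean they were 33 and 7, where the genes compared with include those of low mean. The median percentile ranged from 58.8 to 76.5. Canonical lengths, countable windows and ratios were added after seeing the data. The Hadha to Hadhb ratio (10.2) was 2.87 with canonical, 4.14 with average and 9.40 with joined exon lengths, 5.71 without length and 0.404 with countable windows, where its direction turned. The Etfa to Etfb ratio (7.98) was 16.9, 14.7, 7.96, 32.8 and 4.56 in the same order. The Etfa to Etfdh ratio (0.761) was 0.998 without length. It turned to 1.39, 1.33 and 1.36 with canonical, average and joined exon lengths and 1.70 with countable windows. The cause was not tested. In 300 bases, the GC box was found in 74.2% of the 31 promoters (38.2% of all genes). No paired analysis was possible because no values of single samples were analysed. For the same reason the planned count model, its DESeq2 and filter alternatives and leaving out replicates were not run, and depth could not be assessed.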
